A study of Drosophila melanogaster with 6 samples.

Results

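The genes described here are 81 genes that lay below 1 FPKM in wild-type Drosophila S2 cells and at or above it in S2 cells labelled as a knockout of Tailor. FPKM is the number of sequenced fragments of a gene, scaled to its transcript length and to the size of the library. A gene was chosen when the mean of the 3 wild-type (WT) libraries was under 1 FPKM, each of the 3 knockout (KO) libraries was at least 1 FPKM, and the KO mean was at least 2 times the WT mean. Of 14210 listed genes, 7030 had a WT mean under 1 FPKM, 125 of these were at or above 1 FPKM in all KO libraries, and 85 also met the 2-fold bound. Symbols starting with Hsp, Cyp, Gst or CR were left out, which removed Hsp67Bc, Hsp70Ab, Hsp70Bbb and CR17025. The 81 genes were thus selected on their KO and WT values of FPKM, so their differences between the groups are given as a description, without a test.

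The KO group comprised 3 libraries of S2 cells in which CG1091, the gene of Tailor, was disrupted with CRISPR/Cas9 in a stably depleted culture. The WT group comprised 3 libraries of S2 cells with the wild-type genotype. S2 (Schneider 2) cells are a cultured line of embryonic origin with features of hemocytes, the blood cells of the fly, and polyadenylated RNA was sequenced from both groups. The labels call the KO samples biological replicates, but they do not say how many KO clones were used or whether each WT library had its own culture. For other genes, p-values are given that measure only how these libraries spread, and that spread may be technical. Because whole cultures were sequenced, a change in the share of cells that use a gene and a change in its RNA per cell cannot be told apart.

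Tailor belongs to the terminal nucleotidyltransferases, adds uridines to RNA 3′ ends and acts on hairpin precursors of microRNAs made by splicing. A cultured line keeps most genes of other tissues silent, through missing activators and through repressive chromatin, and genes near the detection limit can give a few fragments without being used by most cells. S2 cells express genes of plasmatocytes, the phagocytic blood cells, including scavenger receptors and collagen IV.

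The libraries held 19053147, 22536308 and 18411809 effective fragments in KO and 20896005, 21346155 and 22957816 in WT, as recovered from the deposited confidence bounds. CG1091 itself stood at 22.3, 26.1 and 26.1 FPKM in KO and at 50.7, 51.2 and 47.7 FPKM in WT, so its mRNA was lower but present in every KO library, and the absence of Tailor rests on the label. Of 10 plasmatocyte markers 6 averaged at least 1 FPKM in WT, while Hml, He, Sr-CI and gcm did not. Among the abundant ones crq (a scavenger receptor) averaged 263.3 FPKM in KO and 223.7 FPKM in WT, and srp (a GATA factor of blood cells) averaged 67.2 FPKM in KO and 58.7 FPKM in WT. All 20 midgut markers and all 10 fat body markers had group means under 1 FPKM in both groups, and of 5 lamellocyte and crystal cell markers atilla was at 0 in all 6 libraries, while msn, a kinase gene used in other cells too, averaged 128.8 FPKM in KO and 117.3 FPKM in WT.

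The phrase "switched on" overstates what was measured. No one of the 81 genes was at 0 in any WT library, and 9 of them reached 1 FPKM or more in at least 1 WT library. Their KO means were 1.16 to 6.37 FPKM with a median of 1.73 FPKM, and their WT means were 0.142 to 0.977 FPKM with a median of 0.578 FPKM. In KO, 54 of the 81 genes averaged under 2 FPKM, 26 averaged between 2 and 4 FPKM, and 1, CG9812, averaged above 4 FPKM. The genes were thus of low level in both groups, set beside library medians of 21.7, 21.8 and 21.7 FPKM in KO and 21.4, 21.7 and 21.6 FPKM in WT over the 7259 genes that averaged 1 FPKM or more.

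**Figure D1:**
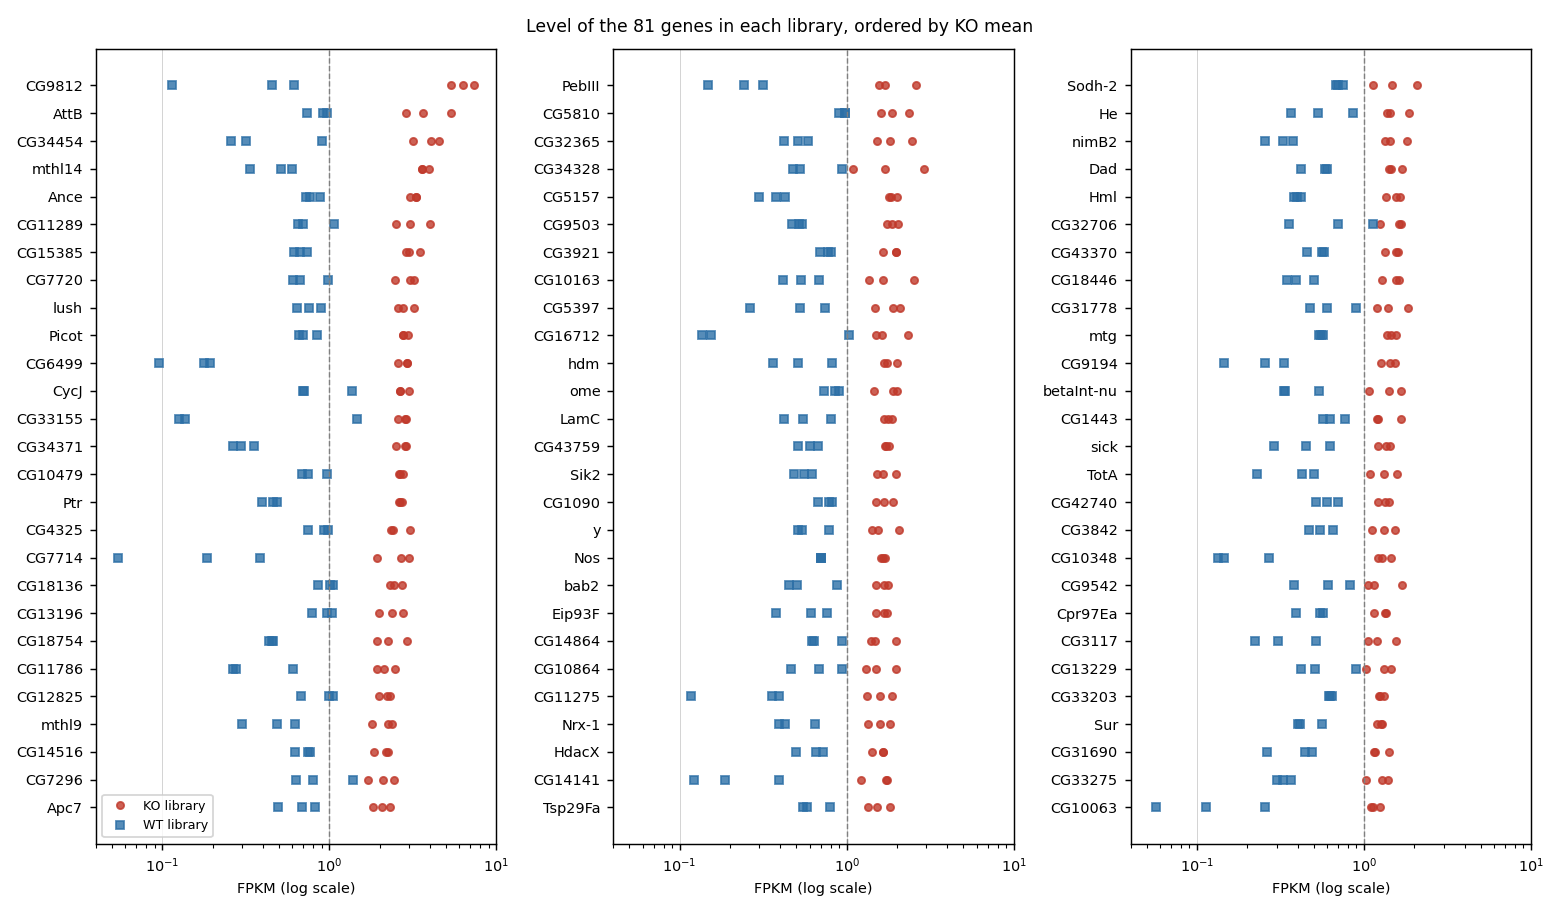
FPKM (log axis) of each of the 81 genes, 1 row per gene ordered by KO mean, in the 3 KO libraries (red circles) and the 3 WT libraries (blue squares); the dashed line marks 1 FPKM. Every KO point lies at or right of 1 FPKM, no gene has a KO point left of one of its WT points, and WT points of 9 genes reach the line.

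The fold between the group means was 2.02 to 18.1 with a median of 3.13. It was under 3 in 38 genes, between 3 and 4 in 20, and at least 4 in 23. The libraries of each gene did not overlap between the groups in 81 of 81 genes, a property that 24.9% of all genes above 0 in some library shared and that the choice of the genes largely fixed. Of the 81 genes, 60 averaged 1 FPKM or more across all 6 libraries and entered the fit across all genes, and the other 21 did not. Among all 7259 genes in that fit, 30.1% were called higher in KO and 32.1% lower (limma on log2(FPKM + 1), adjusted p under 0.05).

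Depth limits how well these levels were known. Behind a single value stood between 9 and 400.3 effective fragments in KO libraries (median 72.3) and between 1 and 182.1 in WT libraries (median 22). Summed over the group, 14 genes rested on fewer than 30 WT fragments and 3 on fewer than 10. Those 3 were CG10063 with 59 fragments in KO and 8 in WT, PebIII with 73 in KO and 9 in WT, and CG16712 with 36 in KO and 9 in WT. The spread within KO was moderate, with a coefficient of variation of 2.15% to 48.7% and a median of 12.3%.

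No one KO library carried the set, which the choice largely fixed by asking for at least 1 FPKM in each KO library. The highest of the 3 KO values fell in replicate 1 for 17 genes, in replicate 2 for 37 and in replicate 3 for 27. The median level of the 81 genes was 1.72, 1.69 and 1.71 FPKM in the KO libraries, against 0.545, 0.542 and 0.563 FPKM in the WT libraries. The authors' deposited table, which was made from read counts with DESeq, held 80 of the 81 genes, and all 80 were higher in KO there. Of them, 79 were at least 2-fold higher in the authors' deposited table, where 15.4% of its 11643 genes were, and the exception was CG33203 at 1.95-fold. That table rests on the same libraries and is no independent measurement. Its median fold over the 80 genes was 3.26, and its mean normalised counts of these genes had a median of 82.3 in KO and 24.0 in WT, per the authors' deposited table.

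The bounds of the choice cut through a continuous range. Just inside lay CG33275, at 1.27, 1.03 and 1.39 FPKM in KO and 0.364, 0.303 and 0.326 FPKM in WT. CG18136 had the highest WT mean, with 2.44, 2.32 and 2.73 FPKM in KO and 0.861, 1.02 and 1.05 FPKM in WT. Just outside lay CG7352, which stood at 0.999, 1.87 and 1.38 FPKM in KO and at 0.671, 0.831 and 0.564 FPKM in WT. NLaz, a lipocalin, missed the same bound with 1.85, 0.998 and 1.27 FPKM in KO and 0.283, 0.565 and 0.366 FPKM in WT. CG3191 missed the fold bound at 1.99-fold, and CG14490 missed the WT bound with a WT mean of 1.01 FPKM. By 1 bound alone, 18 genes missed through a single KO library, 195 through the WT mean and 37 through the fold.

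The same rule with the groups exchanged found 20 genes, which were at or above 1 FPKM in every WT library, under 1 FPKM in the KO mean and at least 2-fold lower in KO. With the 81 genes counted in, the excess of higher over lower genes was largest at low levels. Of 710 genes with a mean of 0.5 to 2 FPKM over the 6 libraries, 152 (21.4%) were at least 2-fold higher in KO and 39 (5.49%) at least 2-fold lower. Between 2 and 10 FPKM these shares were 6.26% and 4.06% of 1501 genes, between 10 and 50 FPKM 1.72% and 1.08% of 3606 genes, and from 50 FPKM upwards 2.90% and 2.68% of 1794 genes. These shares include the 81 genes, which are at least 2-fold higher by the choice, and count group means without a test. Of the 710 genes in the lowest class, 634 were not among the 81, so the choice itself raised the share of higher genes there. The shares without the 81 genes were not counted.

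**Figure D2:**
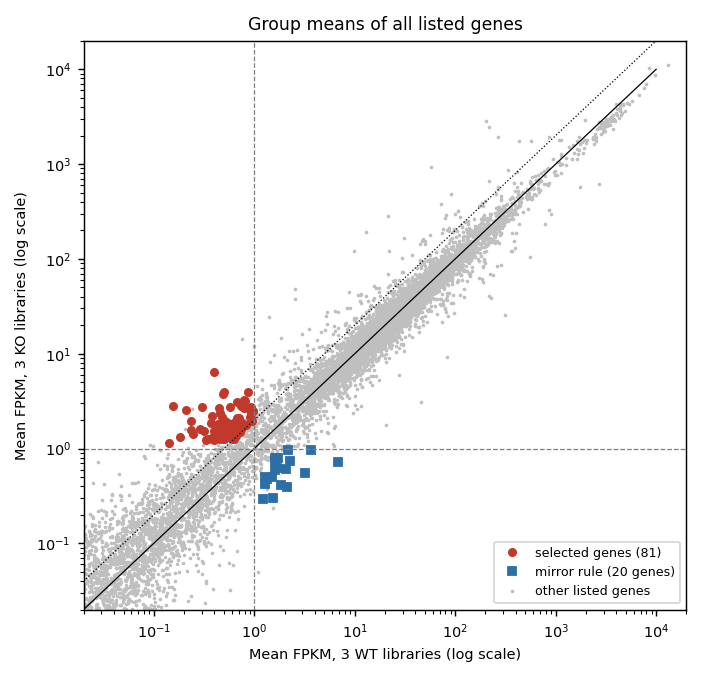
Mean FPKM of the 3 KO libraries (vertical, log axis) against that of the 3 WT libraries (horizontal, log axis) for all listed genes (grey), the 81 genes (red) and the 20 genes of the exchanged rule (blue); dashed lines mark 1 FPKM, the solid line equal levels and the dotted line a 2-fold higher level in KO. The 81 genes form the low end of a wider cloud, with CG9812 highest at a KO mean of 6.37 FPKM.

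**Figure D3:**
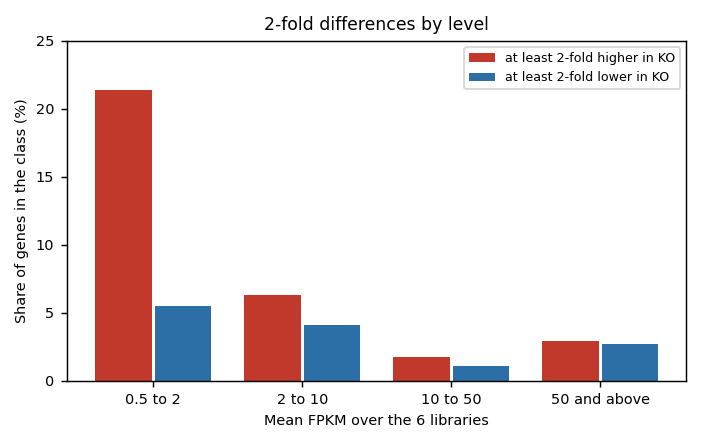
Share of genes (percent) at least 2-fold higher (red) or at least 2-fold lower (blue) in KO, by the mean FPKM over the 6 libraries. In the lowest class 21.4% were higher and 5.49% lower, while from 50 FPKM upwards the shares were 2.90% and 2.68%. The shares include the 81 genes, which are at least 2-fold higher by the choice and raised the share in the lowest class.

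Genes with still lower levels that were not among the 81 were also more abundant in KO in sum. The 2932 other genes with a mean above 0 and under 0.1 FPKM summed to 96.2, 98.9 and 94.1 FPKM in KO and to 71.6, 84.1 and 77.9 FPKM in WT. The 1144 other genes from 0.1 to 0.5 FPKM summed to 295.5, 307.9 and 299.1 FPKM in KO and to 237.8, 255.9 and 249.6 FPKM in WT. In both classes every KO sum lay above every WT sum. The number of genes above 0 was 10078, 10164 and 10019 in KO and 9864, 9991 and 9992 in WT, and what part depth or trace RNA had in this was not tested.

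Roles could be given to 50 of the 81 genes and were grouped after the values had been seen. The gene with the highest level and the second largest fold had none. CG9812 (FBgn0034860, 2R:19299859-19307207, minus strand; build not named) stood at 6.34, 7.40 and 5.36 FPKM in KO and at 0.115, 0.454 and 0.611 FPKM in WT. Its means were 6.37 ± 1.02 FPKM in KO and 0.394 ± 0.254 FPKM in WT (SD, n = 3 each), a 16.2-fold difference, with 466 fragments in KO and 30 in WT. The authors' deposited table gave a 15.6-fold difference for CG9812.

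The largest fold belonged to a membrane transporter. CG6499, now named Amt, encodes an ammonium transporter (FBgn0038309, 3R:11072969-11074859, minus strand). It had 2.92, 2.93 and 2.56 FPKM in KO and 0.0956, 0.192 and 0.178 FPKM in WT. The means of 2.81 ± 0.212 FPKM in KO and 0.155 ± 0.0522 FPKM in WT (SD, n = 3 each) differed 18.1-fold, on 251 fragments in KO and 15 in WT. The KO libraries lay close together, while the WT values rested on a handful of fragments each.

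The other transporters and channels stood nearer to the middle of the set. Picot, a phosphate cotransporter of the inorganic phosphate family, had 2.75, 2.75 and 2.96 FPKM in KO and 0.658, 0.694 and 0.843 FPKM in WT. CG7720, a sodium-coupled solute transporter by its family, had 3.06, 3.22 and 2.47 FPKM in KO and 0.668, 0.983 and 0.610 FPKM in WT. The fold was 3.86 for Picot and 3.87 for CG7720. Sur, an ABC protein of the sulfonylurea receptor family, was even among the KO libraries at 1.25, 1.20 and 1.28 FPKM, against 0.560, 0.405 and 0.412 FPKM in WT. CG1090, a calcium and potassium dependent sodium exchanger, and CG10864, a potassium leak channel, completed the group with KO means of 1.69 and 1.59 FPKM and WT means of 0.758 and 0.694 FPKM. CG10864 lies within CG31122 on the same strand, and CG31122 averaged 23.1 FPKM in KO and 19.2 FPKM in WT.

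Receptors and cell surface proteins numbered 7, with folds of 2.44 to 9.01 and a median of 4.52. The most abundant was mthl14, a G protein-coupled receptor of the Methuselah family (FBgn0052476, 3L:247495-250305, plus strand). It stood at 3.60, 3.59 and 3.96 FPKM in KO and at 0.516, 0.333 and 0.6 FPKM in WT, a 7.69-fold difference. DIP2 overlaps mthl14 on the other strand and was called higher in KO (log2 difference 0.53, adjusted p = 7.42e-06, limma). It averaged 28.7 FPKM in KO and 19.5 FPKM in WT, and its part in the level of mthl14 was not tested. A second family member, mthl9, had 1.79, 2.24 and 2.36 FPKM in KO and 0.625, 0.302 and 0.490 FPKM in WT. As in the whole set, neither Methuselah-like gene overlapped between the groups, and mthl14 was the higher of the pair in every KO library.

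CG34371, now side-V, belongs to the Sidestep immunoglobulin proteins, which guide motor axons in the fly (FBgn0085400, 2R:19050535-19091494, minus strand). It had 2.87, 2.85 and 2.52 FPKM in KO and 0.267, 0.353 and 0.295 FPKM in WT, on 986 fragments in KO and 117 in WT. With these numbers it was among the better measured genes of the set, at a 9.01-fold difference. Ptr, a protein related to the Hedgehog receptor Patched, had 2.61, 2.72 and 2.65 FPKM in KO and 0.484, 0.396 and 0.458 FPKM in WT. Its KO coefficient of variation, 2.15%, was the lowest of the 81 genes.

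Nrx-1, the neurexin of presynaptic contacts, had 1.58, 1.34 and 1.82 FPKM in KO and 0.395, 0.645 and 0.429 FPKM in WT. CG3921, now bark, a septate junction protein, had 1.98, 1.64 and 1.96 FPKM in KO and 0.769, 0.805 and 0.694 FPKM in WT, on the highest fragment sums of the set at 1178 in KO and 517 in WT. Tsp29Fa, a tetraspanin, was 1 of 34 listed tetraspanins and the only one among the 81 genes, at a KO mean of 1.56 FPKM and a WT mean of 0.640 FPKM. Of 23 neuron markers 3 passed the filter on low levels, and in the limma fit Syx1A (log2 difference 0.23, adjusted p = 0.000856) and elav (0.32, adjusted p = 0.00152) were higher in KO and brp (-0.32, adjusted p = 0.0324) lower. The other 20 averaged under 1 FPKM in both groups, with VGlut at 0 in all libraries. Every KO library lay above every WT library in 5 of the 23 and below in 2. Of all genes above 0 in some library, 24.9% had every KO library above every WT library. Syt1, a synaptic vesicle protein gene that was not tested, was among the 5. It had 0.930, 0.948 and 0.723 FPKM in KO and 0.266, 0.266 and 0.168 FPKM in WT. Other low markers, such as Appl, cac and para, overlapped between the groups. The sum of the 23 markers, carried by Syx1A, was 94.5, 86.9 and 90.6 FPKM in KO and 76.4, 80.4 and 78.4 FPKM in WT, so that the KO sums were higher without overlap. The part of this in the level of Nrx-1 was not tested.

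Immune peptides and blood cell proteins made up another 7 genes, with folds of 2.66 to 4.78. AttB, the antibacterial peptide Attacin-B (FBgn0041581, 2R:10636728-10637670, plus strand), was the second most abundant of the 81 genes. It had 2.89, 5.33 and 3.65 FPKM in KO and 0.736, 0.968 and 0.913 FPKM in WT. KO replicate 2 was the high library, and the groups did not overlap, as in all 81 genes. Its near-identical copy AttA averaged 1.17 FPKM in KO and 0.493 FPKM in WT, and reads shared between the copies make the split of the levels uncertain.

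CG16712, now IM33, is an immune-induced peptide with a Kunitz domain. It had 1.62, 2.31 and 1.5 FPKM in KO and 0.154, 1.03 and 0.137 FPKM in WT, where replicate 2 alone passed 1 FPKM. TotA, a humoral stress peptide of the Turandot family, had 1.32, 1.57 and 1.09 FPKM in KO and 0.498, 0.229 and 0.425 FPKM in WT. The counts behind both were small, 36 and 49 fragments in KO against 9 and 15 in WT.

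The blood cell proteins were of similar level. Hml (Hemolectin, a clotting protein of plasmatocytes) had 1.55, 1.35 and 1.65 FPKM in KO and 0.417, 0.398 and 0.379 FPKM in WT, on 1108 fragments in KO and 320 in WT. He (Hemese, a hemocyte surface protein) had 1.37, 1.44 and 1.86 FPKM in KO and 0.363, 0.861 and 0.527 FPKM in WT. Hml was the more evenly measured, and He had a wide WT range.

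The Nimrod gene nimB2, which encodes a secreted protein, had 1.34, 1.44 and 1.80 FPKM in KO and 0.255, 0.376 and 0.327 FPKM in WT. The integrin subunit betaInt-nu, which acts in phagocytosis, had 1.4, 1.07 and 1.66 FPKM in KO and 0.337, 0.540 and 0.332 FPKM in WT. Both lay above the WT range in all KO libraries, as the whole set did. He and nimB2 stand 5073 bp apart on 2L (13965012-13972947), yet the Nimrod genes between them did not share their pattern. There nimB3 averaged 0.805 ± 0.522 FPKM in KO and 0.748 ± 0.556 FPKM in WT, and nimB4 0.487 ± 0.0923 FPKM in KO and 0.707 ± 0.272 FPKM in WT (SD, n = 3 each). On the other side of He, 1171 bp away, nimC1 was low but higher in KO without overlap. It had 0.159, 0.192 and 0.158 FPKM in KO and 0, 0.0225 and 0.0621 FPKM in WT. The adjoining nimA, nimB1 and nimB5 overlapped between the groups. A higher level in KO without overlap was found in 24.9% of all genes above 0 in some library.

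The other plasmatocyte markers went both ways. Of 10 listed markers 2, Hml and He, were among the 81 genes. Of the other 8 markers 6 passed the filter, with 3 higher and 1 lower in KO, beside 30.1% and 32.1% of all tested genes. The higher ones were crq (log2 difference 0.23, adjusted p = 0.000228), eater (0.32, adjusted p = 0.0093) and srp (0.20, adjusted p = 0.0186) in the limma fit, and all are receptors or regulators of these cells. Pxn, a peroxidase of the extracellular matrix, was lower, with 1.67, 1.39 and 1.35 FPKM in KO and 3.32, 3.12 and 2.93 FPKM in WT (log2 difference -0.74, adjusted p = 6.27e-05, limma). Sr-CI, a scavenger receptor gene too low to be tested, had 0.410, 0.286 and 0.398 FPKM in KO and 0.222, 0.0782 and 0.106 FPKM in WT, without overlap. The marker nimC1 is not among the 10, since the list spelled it NimC1 and it was not matched. It was also too low to be tested, and was higher in KO without overlap. Among the 8 other listed markers, every KO library lay above every WT library in 4 and below in 1. Of all genes above 0 in some library, 24.9% had every KO library above every WT library. Summed over all 10 markers, and carried by crq, vkg and Cg25C, the level was 934.8, 868.3 and 895.7 FPKM in KO and 742.3, 1004 and 843.2 FPKM in WT, so the groups overlapped.

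Pathways that act on such genes were counted from the same limma fit, in lists that leave out the 81 genes. Of all 7259 tested genes, 30.1% were called higher in KO and 32.1% lower, the shares to set beside each count. Among antimicrobial and immune-induced peptides 6 of 24 other genes were tested, 3 were higher and 2 lower. Drs (Drosomycin, an antifungal peptide) had 8.65, 11.4 and 9.03 FPKM in KO and 1.76, 1.15 and 1.85 FPKM in WT (log2 difference 2.05, adjusted p = 1.69e-07). IM4 (an immune-induced peptide) had 3.50, 3.73 and 3.46 FPKM in KO and 8.50, 7.10 and 5.90 FPKM in WT (log2 difference -0.83, adjusted p = 5.83e-05). The peptides of this list thus went both ways.

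Among JAK-STAT pathway genes, the pathway that drives the Turandot peptides, 8 of 13 others were tested, 4 were higher and 1 lower. Socs36E, its feedback inhibitor, averaged 206.5 ± 2.70 FPKM in KO and 75.4 ± 3.85 FPKM in WT (SD, n = 3 each; log2 difference 1.44, adjusted p = 4.37e-10, limma). TotM, a further Turandot peptide, averaged 9.31 ± 0.800 FPKM in KO and 2.95 ± 0.310 FPKM in WT (log2 difference 1.38, adjusted p = 2.25e-07). Stat92E, the transcription factor of the pathway, was the lower one (log2 difference -0.28, adjusted p = 0.000271). Among JNK pathway and wound response genes 8 of 10 tested were higher and 1 was lower, with rpr, a cell death activator, at 19.6 ± 0.640 FPKM in KO and 6.28 ± 0.169 FPKM in WT (log2 difference 1.5, adjusted p = 3.29e-09). The median log2 difference of the tested genes was 0.60 in the JNK list and 0.11 in the JAK-STAT list, beside -0.01 over all 7259 tested genes. Of these 7259 genes, 30.1% were called higher and 32.1% lower.

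Heat shock genes had been left out of the set by their symbols, but their co-chaperones and regulators could be counted. Of 8 tested, 7 were higher and 1 lower, beside 30.1% and 32.1% of all tested genes. The median log2 difference of the 8 was 0.58. The co-chaperone gene stv had 45.2, 51.6 and 46.2 FPKM in KO and 2.61, 2.64 and 2.32 FPKM in WT (log2 difference 3.79, adjusted p = 6.55e-12, limma). Of the genes left out, Hsp67Bc would have been the most abundant, at 15.4, 14.8 and 13.0 FPKM in KO and 0.586, 0.922 and 0.751 FPKM in WT.

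Transcription, chromatin and nuclear lamina genes numbered 6. Eip93F, an ecdysone-induced factor of metamorphosis, had 1.67, 1.74 and 1.5 FPKM in KO and 0.380, 0.764 and 0.611 FPKM in WT. The BTB factor bab2, which patterns limbs and ovaries, had 1.76, 1.49 and 1.68 FPKM in KO and 0.453, 0.875 and 0.501 FPKM in WT. Their folds of 2.80 and 2.69 lay below the median of the set. CG10348, a zinc finger gene, differed more, with 1.27, 1.45 and 1.21 FPKM in KO and 0.145, 0.133 and 0.269 FPKM in WT, a 7.19-fold difference.

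LamC, the A-type lamin of differentiated cells, had 1.86, 1.67 and 1.77 FPKM in KO and 0.546, 0.804 and 0.424 FPKM in WT. The class IV deacetylase gene HdacX (HDAC11) had 1.64, 1.42 and 1.66 FPKM in KO and 0.498, 0.659 and 0.725 FPKM in WT. CG18446 (Lime), a zinc finger gene, averaged 1.48 FPKM in KO and 0.412 FPKM in WT. All had KO libraries above every WT library, as the whole set did.

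Ecdysone response genes other than Eip93F were higher in 6 of 9 tested, and the others did not pass. Eip75B, a nuclear receptor of the response, averaged 47.1 ± 1.79 FPKM in KO and 30.9 ± 3.72 FPKM in WT (SD, n = 3 each; log2 difference 0.60, adjusted p = 4.38e-05, limma), and ftz-f1, a nuclear receptor as well, averaged 34.3 ± 1.94 FPKM in KO and 24.6 ± 2.23 FPKM in WT (log2 difference 0.47, adjusted p = 0.000142). The median over the 9 tested was 0.25. Of 17 Polycomb group genes, which keep developmental genes silent, 6 were higher and 2 lower, and the other 9 did not pass. Beside the counts of these lists stand 30.1% higher and 32.1% lower among all tested genes. Scm was higher (log2 difference 0.58, adjusted p = 2.81e-06) and Psc lower (-0.39, adjusted p = 0.000246). Heterochromatin and corepressor genes divided into 6 higher, 5 lower and 7 not passing of 18, with wde, a cofactor of histone H3 lysine methylation, at 3.27 ± 0.235 FPKM in KO and 6.59 ± 0.342 FPKM in WT (log2 difference -0.83, adjusted p = 6.03e-06).

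The 81 genes, 0.57% of all listed genes, held none of the 59 listed patterning transcription factors, and at that share nothing can be read from an absence in a list of this size. Of these, 12 were at 0 in every library and 5 averaged at least 1 FPKM in KO, against 6 in WT. Of the 6 tested, twi and gsb were lower and h was higher, with gsb at 1.06 ± 0.330 FPKM in KO and 2.47 ± 0.294 FPKM in WT (log2 difference -0.76, adjusted p = 0.00043, limma). None of the 28 secreted patterning ligands was among the 81 genes, which is as little informative. Of 15 tested 5 were higher and 4 lower, beside 30.1% and 32.1% of all tested genes. The extremes there were bnl (an FGF) at 18.2 FPKM in KO and 3.49 FPKM in WT and daw (an activin-like ligand) at 38.8 FPKM in KO and 227.8 FPKM in WT, with log2 differences of 2.10 (adjusted p = 1.64e-09) and -2.52 (adjusted p = 1.39e-12).

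Peptidases and their inhibitors were 6 genes with folds of 2.14 to 5.23. Ance, an angiotensin-converting enzyme that cleaves peptides (FBgn0012037, 2L:13905645-13909172, plus strand), had 3.06, 3.31 and 3.32 FPKM in KO and 0.769, 0.877 and 0.722 FPKM in WT. Its 4.09-fold difference rested on 400 fragments in KO and 101 in WT. CG18754, a serine protease of the clip-domain kind, had 2.25, 2.90 and 1.92 FPKM in KO and 0.436, 0.463 and 0.454 FPKM in WT. The WT values of CG18754 were even, and those of KO spread with a coefficient of variation of 21.2%. CG14516, an aminopeptidase, and ome, a dipeptidyl peptidase, averaged 2.09 and 1.78 FPKM in KO and 0.709 and 0.831 FPKM in WT.

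Metabolic and detoxifying enzymes (7 genes) had the lowest median fold of the role groups, 2.39. CG11289, the UDP-glycosyltransferase Ugt307A1, had 4.01, 3.02 and 2.52 FPKM in KO and 1.06, 0.652 and 0.693 FPKM in WT. Nos, the nitric oxide synthase, was the most even, with 1.64, 1.69 and 1.61 FPKM in KO and 0.702, 0.701 and 0.698 FPKM in WT. Nos overlaps CG6700 on the same strand, and CG6700 did not pass the test at 32.4 ± 1.39 FPKM in KO and 32.2 ± 1.61 FPKM in WT (SD, n = 3 each; log2 difference 0.01, adjusted p = 0.884, limma). Sodh-2, a sorbitol dehydrogenase, had 1.13, 1.48 and 2.07 FPKM in KO and 0.749, 0.695 and 0.678 FPKM in WT. CG9503 (a GMC oxidoreductase), CG1443 (wat, a fatty acyl-CoA reductase) and CG3842 (a short-chain dehydrogenase) averaged 1.88, 1.35 and 1.32 FPKM in KO and 0.510, 0.655 and 0.553 FPKM in WT.

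Cell cycle and meiosis genes were CycJ, Apc7 and hdm. CycJ, a cyclin known from the ovary, had 2.64, 2.99 and 2.65 FPKM in KO and 0.700, 1.37 and 0.706 FPKM in WT, with WT replicate 2 apart from the other WT libraries. Apc7, a subunit of the anaphase-promoting complex, averaged 2.07 FPKM in KO and 0.670 FPKM in WT, and hdm, which acts in meiotic crossing over, averaged 1.80 FPKM in KO and 0.564 FPKM in WT. Signalling regulators were the kinase gene Sik2, the inhibitory Smad gene Dad and CG33275 (Pura), with KO means of 1.71, 1.52 and 1.23 FPKM and WT means of 0.552, 0.535 and 0.331 FPKM.

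Secreted and cuticle proteins were 5 genes with folds of 2.55 to 8.36. The gene lush encodes an odorant-binding protein of pheromone sensing, and of the 44 genes whose symbols start with Obp none was among the 81 genes, while 4 averaged at least 1 FPKM in both groups, 3 of them higher and 1 lower in KO (limma). The level of lush was 2.58, 2.75 and 3.22 FPKM in KO and 0.890, 0.645 and 0.758 FPKM in WT. Cpr97Ea was the only 1 of 70 listed Cpr cuticle genes in the set, at 1.14, 1.35 and 1.33 FPKM in KO and 0.545, 0.389 and 0.566 FPKM in WT. PebIII, an ejaculatory bulb protein, had 1.69, 2.61 and 1.57 FPKM in KO and 0.313, 0.242 and 0.147 FPKM in WT, and y, the yellow pigmentation gene, averaged 1.68 FPKM in KO and 0.613 FPKM in WT. No other Cpr gene averaged at least 1 FPKM in KO, and 0 did in WT.

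No role was given to 31 of the 81 genes. Over the whole set, 49 genes carried a CG number as symbol in the files, and 14 of those have a newer name. CG34454 (FBgn0085483, 3L:231681-232350, minus strand) had 4.09, 3.19 and 4.53 FPKM in KO and 0.259, 0.909 and 0.315 FPKM in WT. CG7714 (FBgn0038645, 3R:14551116-14552156, minus strand) had 3.01, 2.69 and 1.92 FPKM in KO and 0.0546, 0.386 and 0.186 FPKM in WT. The 12.2-fold difference of CG7714 came next in size after those of CG6499 and CG9812, on 126 fragments in KO and 10 in WT. CG15385, on 503 fragments in KO and 117 in WT, had 2.99, 3.47 and 2.86 FPKM in KO and 0.616, 0.736 and 0.669 FPKM in WT.

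CG10063, the least abundant in both groups, had 1.12, 1.24 and 1.1 FPKM in KO and 0.0568, 0.113 and 0.255 FPKM in WT. CG34328 was the least even, with 1.69, 1.08 and 2.89 FPKM in KO and 0.935, 0.528 and 0.478 FPKM in WT, a coefficient of variation of 48.7% in KO. It lies inside CG32549 on the same strand, which was higher in KO at 201.2 ± 9.14 FPKM, against 100.1 ± 2.62 FPKM in WT (SD, n = 3 each; log2 difference 1.0, adjusted p = 7.66e-09, limma). What part reads of CG32549 had in the level of CG34328 was not tested. CG33155 had 2.57, 2.87 and 2.84 FPKM in KO and 0.127, 0.137 and 1.47 FPKM in WT, so WT replicate 3 decided its fold. With all libraries the fold of CG33155 was 4.77 and the log2 difference 2.26, without WT replicate 3 the log2 difference was 4.38, and the authors' deposited table gave 2.11-fold.

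The set shared no single place in the genome. The 81 genes fell on X (10 genes, 12.3%), 2L (19, 23.5%), 2R (14, 17.3%), 3L (17, 21.0%) and 3R (21, 25.9%). The 1358 other genes with a WT mean of 0.1 to 1 FPKM fell at 15.8%, 19.4%, 22.1%, 17.5% and 23.2% on these arms. By strand, 38 were on plus and 41 on minus among the 79 found by identifier in the Ensembl annotation, all 79 protein coding. The exons covered 381 to 14459 bases with a median of 2038, against a median of 1608 in 1308 such other genes, and 50 of the 81 genes had a single transcript in the files.

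Within 20 kb of each other lay 10 of the 81 genes, in 5 pairs. CG16712 and CG31778, both Kunitz-type protease inhibitor genes, stand 7444 bp apart on 2L, and CG31778 had 1.84, 1.19 and 1.4 FPKM in KO and 0.890, 0.472 and 0.599 FPKM in WT. The 7 genes between them were at 0 in all WT libraries, with KO means of at most 0.0625 FPKM. CG34454 and mthl14 are 15144 bp apart on 3L, and E(bx) between them, a nucleosome remodelling subunit, did not pass at 48.7 ± 5.58 FPKM in KO and 47.0 ± 1.54 FPKM in WT (SD, n = 3 each; adjusted p = 0.62, limma).

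CG6499 and CG14864 are 17546 bp apart on 3R, with Su(var)3-9, a histone methyltransferase gene, between them at 11.6 ± 1.05 FPKM in KO and 8.55 ± 0.476 FPKM in WT (SD, n = 3 each; log2 difference 0.40, adjusted p = 0.000717, limma). CG4325 and Sik2 are 11491 bp apart on X, with moody, a receptor gene of glia, between them at 22.4 ± 0.619 FPKM in KO and 17.3 ± 0.905 FPKM in WT (log2 difference 0.35, adjusted p = 0.000215). CG4325 had 2.40, 2.36 and 3.03 FPKM in KO and 0.924, 0.984 and 0.748 FPKM in WT. CG14864 had 1.99, 1.4 and 1.48 FPKM in KO and 0.640, 0.618 and 0.940 FPKM in WT. Between the pairs, genes that were higher, lower, not passing and near 0 were thus all found.

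Neighbouring genes had no part in the choice and could be tested. The nearest gene on each side that neither overlaps nor belongs to the set gave 161 genes, of which 85 were abundant enough for the fit. Of these 85, 36 (42.4%) were higher in KO and 27 (31.8%) lower, while 22 did not pass, beside 30.1% and 32.1% of all tested genes. At least 2-fold higher were 8 (9.41%), beside 2.45% of all tested genes, and at least 2-fold lower were 0, beside 1.56%. In the authors' deposited table, which also lists less abundant genes, 13 of 142 neighbours (9.15%) passed an adjusted p of 0.05 and were at least 2-fold higher in KO, beside 3.68% of all its genes. In the limma fit their median log2 difference was 0.05, against -0.01 for all tested genes.

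For comparison, the neighbours of 1284 other genes with a WT mean of 0.1 to 1 FPKM were taken, a step added after the data had been seen. A nearest gene that belonged to the compared group was dropped here, while for the 81 genes the next gene outside was used. Of 1219 tested, 28.5% were higher and 32.7% lower, and 25 (2.05%) were at least 2-fold higher and 28 (2.30%) at least 2-fold lower. Of 20 tested neighbours of the 20 genes of the exchanged rule, 6 were higher and 3 lower, and 0 were at least 2-fold higher and 1 at least 2-fold lower. The differences between these shares were not tested.

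The 8 strongly higher neighbours lay 76 to 9276 bp from their partner, and 7 of them were on its strand. The share of all neighbours on the strand of their partner was not counted. CG42846 lies 76 bp downstream of CG34454 and had 36.6, 48.5 and 42.6 FPKM in KO and 11.6, 11.8 and 11.0 FPKM in WT (log2 difference 1.80, adjusted p = 1.73e-08, limma). CG18557, a gene of the serine protease family 372 bp downstream of CG3117, had 102.3, 103.7 and 102.8 FPKM in KO and 31.6, 28.9 and 27.5 FPKM in WT (log2 difference 1.78, adjusted p = 3.01e-10). Both were far more abundant than the partner upstream, and CG3117 itself had 1.55, 1.06 and 1.20 FPKM in KO and 0.224, 0.307 and 0.515 FPKM in WT.

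In 4 further cases the abundant gene lies upstream of its partner. ImpL3, the lactate dehydrogenase gene, ends 731 bp before CG10163 and had 621.5, 701.2 and 646.8 FPKM in KO and 213.9, 221.0 and 222.1 FPKM in WT (log2 difference 1.58, adjusted p = 4.01e-10, limma). CG10163, a lipase gene, had 1.36, 1.66 and 2.52 FPKM in KO and 0.687, 0.535 and 0.414 FPKM in WT, so ImpL3 was 356.0 times more abundant in KO. CG7607 ends 718 bp before CG14141 and had 11.3, 11.5 and 9.88 FPKM in KO and 2.33, 2.90 and 2.69 FPKM in WT (log2 difference 1.71, adjusted p = 3.40e-08). CG14141 (nkt) had 1.72, 1.75 and 1.22 FPKM in KO and 0.121, 0.186 and 0.395 FPKM in WT. Whether reads from beyond the end of the upstream gene entered the level of the partner was not tested.

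CG9815 ends 1823 bp before CG9812, the most abundant of the 81 genes, and had 13.9, 19.7 and 15.2 FPKM in KO and 3.09, 2.39 and 3.56 FPKM in WT (log2 difference 2.10, adjusted p = 1.83e-07, limma). CG42240 lies 5616 bp upstream of CG3842 and had 16.2, 16.3 and 18.1 FPKM in KO and 4.96, 4.68 and 4.16 FPKM in WT (log2 difference 1.67, adjusted p = 1.13e-08). CG3842 had 1.52, 1.12 and 1.32 FPKM in KO and 0.649, 0.542 and 0.467 FPKM in WT. The fold of the neighbour was smaller than that of CG9812 in the first of these pairs and larger than that of CG3842 in the second.

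CG12744 lies 1637 bp downstream of CG18446 and had 6.84, 6.05 and 7.66 FPKM in KO and 2.83, 2.04 and 2.58 FPKM in WT (log2 difference 1.17, adjusted p = 4.43e-06, limma). Tsf1, which encodes the iron carrier transferrin, lies 9276 bp from CG34328 on the opposite strand, with the ends of both genes facing. It had 9.55, 8.94 and 8.88 FPKM in KO and 1.96, 1.71 and 2.27 FPKM in WT (log2 difference 1.77, adjusted p = 2.80e-08). In all 8 pairs the neighbour was the more abundant gene, by 2.55 to 356.0 times in KO. The choice of low genes and the filter and fold asked of the neighbours largely fixed this order.

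**Figure D4:**
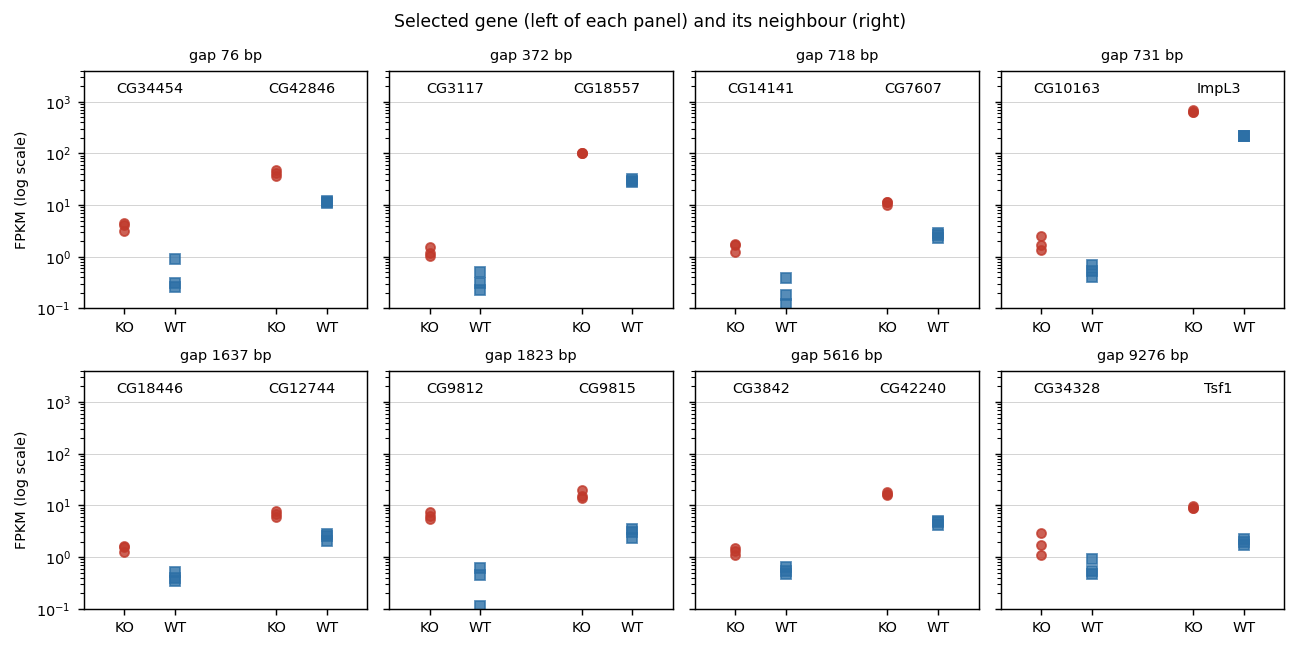
FPKM (log axis) of 8 of the 81 genes (left in each panel) and of the neighbouring gene (right), in 3 KO libraries (red circles) and 3 WT libraries (blue squares); panels are ordered by the gap between the genes, 76 to 9276 bp. In each panel both genes are higher in KO and the neighbour is the more abundant, which the choice of both largely fixed.

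**Figure D5:**
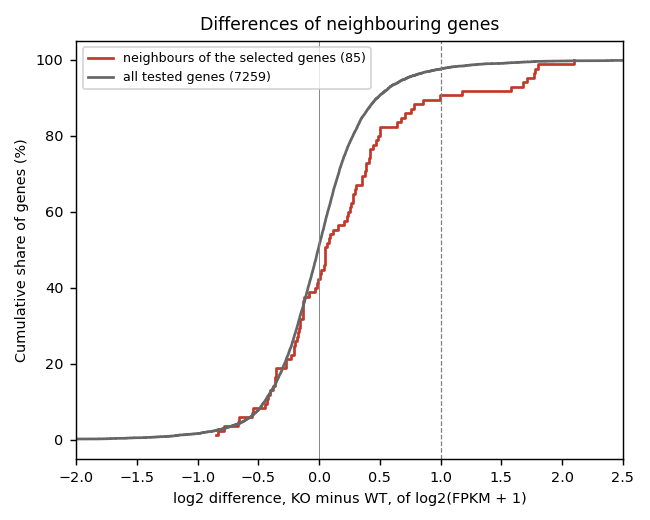
Cumulative share of genes (percent) by log2 difference, KO minus WT, of log2(FPKM + 1), for the 85 tested neighbours (red) and all 7259 tested genes (grey). The curves run together below 0, and above 1 (a 2-fold difference, dashed) lie 9.41% of the neighbours and 2.45% of all tested genes.

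Overlap with other genes touches many levels of the set. Of the 81 genes, 40 overlap another listed gene, 25 overlap one with a higher KO mean, and 14 lie inside the span of another gene. On the same strand as such a more abundant gene were 6. This is a minimum, since for 5 the strand of such a gene, or for CG9542 its own strand, was not found. CG33203 is in both counts. In 1 of these 5 cases, CG5810, the gene that spans it was itself called higher in KO, and its part in the level of CG5810 was not tested. The library kit keeps the strand, but the sources used here do not give whether counting used the strand. CG33155, for example, lies inside mRpL53, a mitochondrial ribosomal protein gene on the same strand that was higher in KO, at 21.1 ± 0.335 FPKM against 16.8 ± 0.278 FPKM in WT (SD, n = 3 each; log2 difference 0.31, adjusted p = 0.000238, limma). In contrast, the abundant gene Flo-2, within whose span CG9503 lies on the other strand, was lower in KO. Flo-2 averaged 36.3 ± 0.0978 FPKM in KO and 48.6 ± 1.06 FPKM in WT (log2 difference -0.41, adjusted p = 8.89e-06, limma). CG9503 had 1.87, 2.02 and 1.74 FPKM in KO and 0.473, 0.541 and 0.516 FPKM in WT. DIP2 and CG14695, which overlap mthl14 and Sodh-2 on the other strand, were called higher in KO, so such genes went both ways.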

How the data were processed

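Polyadenylated RNA of S2 cells was extracted with Trizol, selected on beads and made into directional NEBNext libraries, per the labels' protocols. The authors deposited 1 gene table per library of FPKM values with confidence bounds, laid out as Cufflinks writes them per the file headers. A second kind of deposited table, the authors' comparison, holds mean normalised counts (a signal per gene and group), their fold ratio, its log2 and p-values, with DESeq columns per the file headers. Its fold runs WT over KO and was turned here. The submitters' processing notes name Cufflinks 1.3.0, TopHat 1.4.1, BWA 0.6.1, DESeq 1.10.1 and HTSeq 0.6.1p1. Neither build nor annotation is given in the sources used here, and coordinates follow the files, counted from 1.

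The choice of genes used FPKM as deposited. Effective fragments are the square of 2 times the FPKM over its distance to the upper bound, and for single-transcript genes 92.6% to 93.1% of those under 30 fell within 0.02 of a whole number. They are not read counts for genes with several transcripts, and they cover counting error only. The 7259 genes that averaged 1 FPKM or more across all 6 libraries were fitted with limma 3.58.1 (R 4.3.3), on log2(FPKM + 1) (trend and robust settings, Benjamini-Hochberg adjustment over all tested genes, threshold 0.05), and a fold on this scale understates the change of low genes. The fit was tested on simulated data. Library correlations of log2 levels, across genes, were 0.996 to 0.997 within KO and within WT and 0.966 to 0.970 between the groups, and at most 0.0413% of genes had identical values in any pair of libraries. Replicate numbers gave no sign of pairing the libraries.

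The 81 genes, the gene lists and the rules were chosen with earlier results of these data known, and the role groups, level classes, sums of low genes and neighbours of other low genes were added after the values had been seen. Named were the 14 genes with the highest KO mean, the 14 with the largest log2 ratio after adding 0.1 FPKM to both means, genes on a list or in a family, pairs within 20 kb, genes at the bounds, up to 3 called genes per pathway list, and neighbours with at least a 2-fold difference. Other genes were named by role. Strand, exon length and biotype came from the Ensembl annotation of BDGP6 by gene identifier. The alternatives tried were leaving out each library, other bounds of the choice, the replicate number as a block, median scaling, a pseudocount of 0.1 or 5, a filter at 5 FPKM or none, plain eBayes, and the authors' deposited table.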

Additional observations from a re-analysis of the deposited data

How the results depend on the processing

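The number of genes chosen was 81 in the main choice and after median scaling, 95 with a bound of 0.5 FPKM (29 shared with the 81), 65 with a bound of 2 FPKM (18 shared) and 23 with a fold of 4. Leaving out each library in turn gave 81 to 94 genes, of which 75 to 80 were shared. In the fit across all genes 4509 were called, and 3987 to 4541 over the alternatives. Of the neighbours 63 were called, and 59 to 69 over the alternatives. At least 2-fold higher were 8 neighbours in the main fit, 7 to 10 over the limma alternatives and 13 of 142 in the authors' deposited table, and the cause of that difference was not tested. With the replicate number as a block (replicate block) 4393 genes, 64 neighbours and 8 strongly higher neighbours were called. Same-numbered libraries correlated at -0.049, 0.003 and -0.032, so the numbers gave no sign of pairing. For single named genes, 343 values under an alternative moved by less than the spread between replicates, and CG33155 without WT replicate 3 moved to a log2 difference of 4.38, against 2.26. Of the list counts, 242 stayed within 1.5 times the main count, 6 were higher and 4 lower. The values are limited by depth, since 14 of the 81 genes rested on fewer than 30 WT fragments.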
